A study of Mus musculus with 30 samples.

Results

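Ribosome biogenesis is the production of ribosomes in the nucleolus, and 32 genes of this process and of the nucleolus are described here in mouse small intestinal epithelium. They were chosen by gene symbol from the 54146 genes of the deposited count table, and all 32 were found and had enough reads to be tested in every comparison. Female C57BL/6 mice of 8 to 10 weeks were kept for 1 week on a semi-purified diet (AIN93G) that lacks agonists of the aryl hydrocarbon receptor (AHR), a ligand-activated transcription factor. They were then gavaged with 10 µg of indolo[3,2-b]carbazole (ICZ), an AHR agonist formed from dietary indoles, in corn oil, or with vehicle. The epithelium was taken 12 h later and released by sequential EDTA treatment in 5 fractions, F1 to F5, which were profiled with QuantSeq 3' mRNA libraries. The vehicle group had 3 mice and 15 libraries, and the ICZ group had 3 mice and 14 libraries, with F1 analysed here for 2 of its mice, replicates 1 and 2. The titles mark every mouse of both groups as WT, all shared the diet, the sex and the strain, and the labels do not say which stretch of the crypt-villus axis a fraction holds.

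In the nucleolus RNA polymerase I transcribes the ribosomal RNA precursor. Small nucleolar ribonucleoproteins (snoRNPs), complexes of proteins with small nucleolar RNAs (snoRNAs), modify and help to cleave that precursor, and many assembly factors then fold and trim it into the small and the large ribosomal subunit. Dividing cells make many ribosomes, and in the small intestine the dividing cells lie in the crypts, whereas the cells of the villus are differentiated. The 32 genes fall into 6 roles, with 4 genes of H/ACA snoRNPs, 4 of C/D snoRNPs and the U3 particle, 4 of RNA polymerase I transcription, 7 of the small subunit, 7 of the large subunit and 6 other nucleolar genes.

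Gene reads per library ranged from 4359673 to 7819837 with a median of 6351137. The 10 most abundant genes took 22.4% to 38.6% of gene reads in 28 of the libraries and 54.3% in the F5 library of ICZ replicate 1, which stood apart. Cyp1a1, a target of AHR, had reads in 14 of 14 ICZ libraries, at 8.27 to 99.9 CPM, and 4 reads in all over the 15 vehicle libraries. The absorptive enterocyte list summed to 39193 to 51354 CPM in F1 and 14142 to 30493 CPM in F5 of vehicle mice, and the epithelial list was present throughout, at 4495 to 6695 CPM in all libraries. Levels are given as CPM, reads per gene scaled to a common library size, computed on library sizes scaled by trimmed mean of M values (TMM), and means are given with the SD over mice.

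In vehicle mice the 32 genes were lowest in F1 and higher in the fractions released later. Their summed level was 1355, 883 and 1046 CPM in F1 of replicates 1, 2 and 3, and 1971, 2099 and 3108 CPM in F5 of the same mice. All F5 sums therefore lay above all F1 sums, and replicate 3 had the highest F5 level. In edgeR's quasi-likelihood test, blocked by mouse and with Benjamini-Hochberg adjustment over 13164 genes, 29 of the 32 genes rose from F1 to F5 at an adjusted p under 0.05 and none fell. Among all genes tested, 14.9% were called higher. The median log2 fold change of the 32 genes was 1.14, or 2.21-fold, against 0.02 over all genes, with a range from 0.10 to 1.71. For 25 of the 32 genes all F5 libraries exceeded all F1 libraries, which held for 19.3% of all genes tested. The size of the change differed between mice. The median log2 difference between F5 and F1 over the 32 genes was 0.49 in replicate 1, 1.14 in replicate 2 and 1.52 in replicate 3, and it was positive for 30, 32 and 32 genes. Without replicate 3 12 genes were called (2.98% of all genes called higher in the same fit), without replicate 2 19 (6.10%) and without replicate 1 30 (16.4%), with none lower. In bulk fractions, fewer cells of a type and less RNA per cell cannot be told apart.

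**Figure D1:**
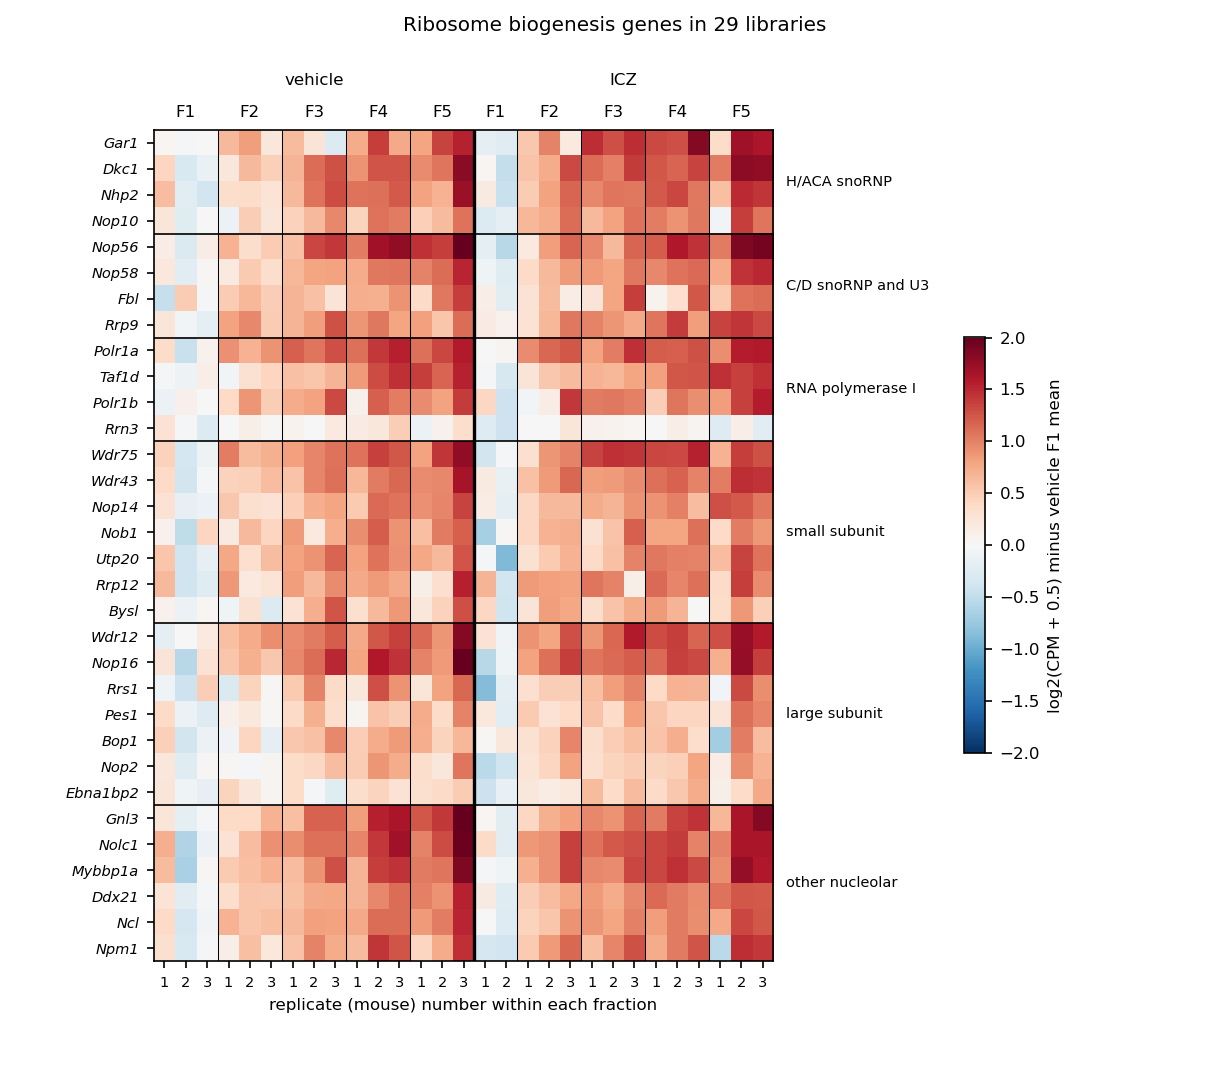
Level of each of the 32 genes (rows, grouped by role) in each of 29 libraries (columns, grouped by treatment and fraction, numbered by replicate), as log2(CPM + 0.5) minus the mean of the 3 vehicle F1 libraries. F1 columns are the palest or blue in both treatments, the F4 and F5 columns are mostly red, and the row of Rrn3 stays pale.

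H/ACA snoRNPs carry out pseudouridylation of ribosomal RNA and share their proteins with telomerase. All 4 of their genes rose, with a median log2 fold change of 1.17. Gar1, a structural protein of the particle (chromosome 3, 129824912 to 129831396, minus strand, GRCm38), stood at 9.28, 8.71 and 8.93 CPM in F1 of vehicle replicates 1, 2 and 3 and at 15.9, 23.5 and 26.9 CPM in F5. The F1 libraries were close to each other and all F5 libraries were above them, with the smallest gain in replicate 1. Its log2 fold change was 1.32 ± 0.24 (SE; edgeR adjusted p = 0.000825). Dkc1, the pseudouridine synthase, went from 57.1 ± 16.0 CPM to 141 ± 48.3 CPM (SD, n = 3; log2 fold change 1.26 ± 0.23). Nhp2 changed by 1.08 ± 0.29 and Nop10, the smallest of the 4 effects, by 0.72 ± 0.17 on the log2 scale, and both are core proteins of the particle.

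C/D snoRNPs carry out 2'-O-methylation of ribosomal RNA. All 4 genes of this role rose, with a median log2 fold change of 1.19. Nop56, a core protein of the particle (chromosome 2, 130274430 to 130279313, plus strand), had the largest change of the 32 genes: 19.7, 14.2 and 19.5 CPM in F1 and 49.4, 46.6 and 82.7 CPM in F5. Every F5 library held more than 2 times the level of any F1 library, and the log2 fold change was 1.71 ± 0.22 (edgeR adjusted p = 8.69e-05). Nop58, its partner in the core (chromosome 1, 59684971 to 59719044, plus strand), had 99.6, 72.8 and 86.7 CPM in F1 and 170, 187 and 248 CPM in F5, without overlap (log2 fold change 1.22 ± 0.14, edgeR adjusted p = 1.72e-05). Fbl, the methyltransferase of the particle, had 0.969 to 2.37 CPM in F1 and 2.15 to 4.79 CPM in F5, so its groups overlapped (1.17 ± 0.39). Rrp9, a protein of the U3 particle, which acts in the first cleavages of the precursor, changed by 0.90 ± 0.25.

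Several of these genes hold snoRNA genes within their own bounds, on the same strand. GENCODE M21 places 27 snoRNA genes inside 7 of the 32 genes (Nop56, Nop58, Dkc1, Taf1d, Gnl3, Ncl and Wdr43), or 21.9% of the 32, against 1.71% of 10343 protein-coding genes tested. All 7 hosts rose from F1 to F5, with a median log2 fold change of 1.26, and 22 of the 25 other genes rose, with a median of 1.02. C/D snoRNAs carry a C box near the 5' end and a D box near the 3' end. As examples, one snoRNA gene inside Nop56 (chr2:130275506-130275573, plus strand) and one inside Nop58 (chr1:59704790-59704873, plus strand) are shown 5' to 3' from the GRCm38 reference, with TGATGA and CTGA, letters of the C and D boxes, in capitals. Both boxes within 20 bases of the ends were found in 69.4% of 98 snoRNA genes with a Snord name.
Snord110: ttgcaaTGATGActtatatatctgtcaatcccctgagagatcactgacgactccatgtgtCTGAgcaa
Snord11: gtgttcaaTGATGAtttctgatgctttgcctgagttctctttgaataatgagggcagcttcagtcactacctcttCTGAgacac
The libraries start from poly(A) tails, which mature snoRNAs lack, and the 27 snoRNA genes had 409 reads in all over 29 libraries, with reads at 9 of them. Their own levels were therefore not compared.

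Of the 4 RNA polymerase I genes, 3 rose and the median log2 fold change was 1.29. Taf1d, a subunit of the promoter selectivity factor SL1 (chromosome 9, 15306214 to 15316991, plus strand), had the smallest p of the 32 genes. It stood at 55.4, 52.9 and 62.4 CPM in F1 and at 149, 128 and 167 CPM in F5, so that the lowest F5 library was above 2 times the highest F1 library (log2 fold change 1.38 ± 0.13, edgeR adjusted p = 1.86e-06). The subunit genes Polr1a and Polr1b of the polymerase changed by 1.38 ± 0.20 and 1.21 ± 0.31. Rrn3, the initiation factor that joins the polymerase to the promoter, was the exception (chromosome 16, 13780708 to 13814839, plus strand). It had 34.6, 27.9 and 23.4 CPM in F1 and 26.0, 30.1 and 36.1 CPM in F5. It was lower in F5 in replicate 1 and higher in replicates 2 and 3, and its log2 fold change of 0.10 ± 0.16 did not pass (edgeR adjusted p = 0.679).

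**Figure D2:**
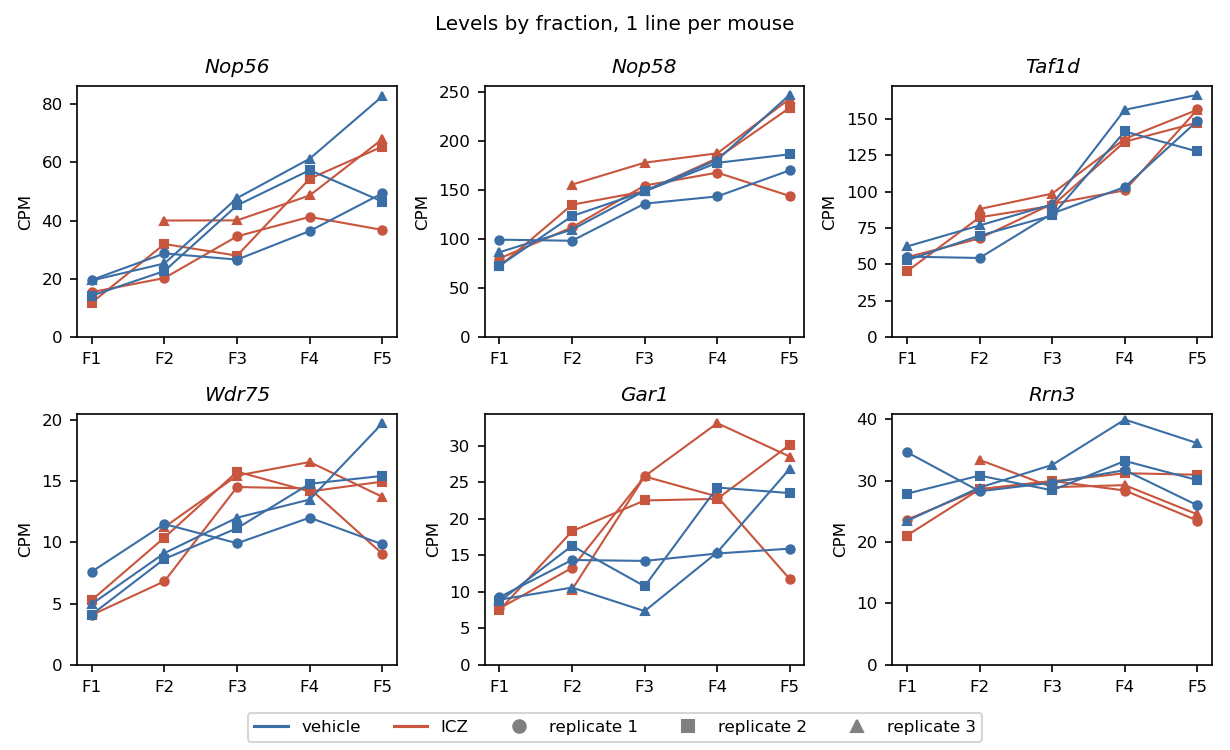
CPM (y axis, from 0) over the fractions F1 to F5 (x axis) for 6 of the genes, with 1 line per mouse, vehicle in blue, ICZ in red and the symbol giving the replicate number. Nop56, Nop58, Taf1d and Wdr75 climb from F1 in most mice, Gar1 is higher in the ICZ mice than in the vehicle mice at F3, and Rrn3 stays between 21.1 and 39.9 CPM.

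For the small subunit 6 of 7 genes rose, with a median log2 fold change of 1.02. Wdr75, a protein of the UTP-A complex that binds the nascent precursor (chromosome 1, 45795166 to 45823619, plus strand), had 7.62, 4.12 and 4.98 CPM in F1 and 9.85, 15.4 and 19.7 CPM in F5. The groups did not overlap, but replicate 1 gained little (log2 fold change 1.43 ± 0.26, edgeR adjusted p = 0.000787). Without replicate 3 its log2 fold change was 1.13 and no longer passed (adjusted p = 0.0555). Nop14, an assembly factor with the smallest p of this role, went from 20.9, 15.2 and 15.7 CPM to 32.8, 34.1 and 44.2 CPM (1.10 ± 0.18, adjusted p = 0.00037). Wdr43, of the same UTP-A complex, changed by 1.17 ± 0.19, Nob1, the endonuclease that makes the mature end of small subunit RNA, by 1.02 ± 0.30, Utp20 by 0.91 ± 0.24 and Bysl by 0.73 ± 0.25. Rrp12 did not pass: it fell in replicate 1 from 7.75 to 5.19 CPM and was higher in F5 in the other mice (0.79 ± 0.35, edgeR adjusted p = 0.099).

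The large subunit had the smallest median, 0.72, with 6 of 7 genes higher. Pes1, Bop1 and Wdr12 form the PeBoW complex, which acts in large subunit maturation. Within it Wdr12 went from 3.74, 4.27 and 4.98 CPM to 10.0, 8.38 and 16.6 CPM without overlap (log2 fold change 1.41 ± 0.23, edgeR adjusted p = 0.000268). Pes1 changed by 0.72 ± 0.20, and Bop1, at 0.60 ± 0.24, did not pass (adjusted p = 0.0677). The differences between the 3 genes were not tested. Nop2, a methyltransferase of large subunit RNA, had 21.2, 15.2 and 18.3 CPM in F1 and 23.3, 21.2 and 38.5 CPM in F5, so that one F5 library was level with the highest F1 library (0.58 ± 0.18, adjusted p = 0.0238). Ebna1bp2, an assembly factor, went from 34.3, 27.2 and 25.9 CPM to 36.2, 37.9 and 41.1 CPM. This was the smallest change that passed (0.42 ± 0.15, edgeR adjusted p = 0.0372), and it did not pass in 5 of 9 alternative settings. Nop16 changed by 1.32 ± 0.26 and Rrs1 by 0.73 ± 0.25.

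All 6 other nucleolar genes rose, with a median of 1.21. Gnl3, or nucleostemin, a GTP-binding protein abundant in stem and dividing cells (chromosome 14, 31012433 to 31019152, minus strand), went from 33.0, 24.2 and 27.1 CPM in F1 to 66.6, 75.0 and 121 CPM in F5. Each F5 library was at least 2 times the highest F1 library (log2 fold change 1.59 ± 0.20, edgeR adjusted p = 4.74e-05). Ddx21, an RNA helicase, had 89.0, 62.8 and 72.0 CPM in F1 and 149, 138 and 217 CPM in F5 (1.16 ± 0.15, adjusted p = 4.67e-05). Ncl, or nucleolin, changed by 1.13 ± 0.18, Npm1, or nucleophosmin, by 0.88 ± 0.25, Nolc1 by 1.35 ± 0.31 and Mybbp1a by 1.26 ± 0.29.

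**Figure D3:**
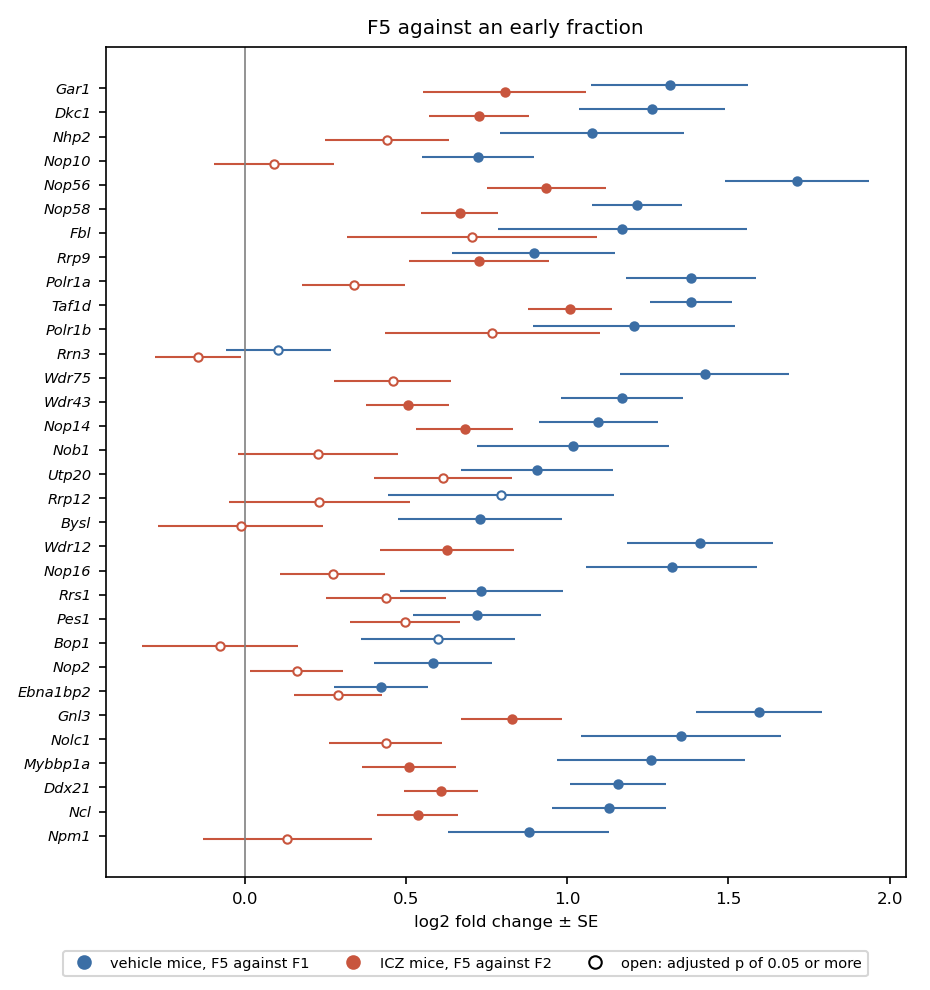
Log2 fold change of F5 against F1 in vehicle mice (blue) and of F5 against F2 in ICZ mice (red) for each of the 32 genes, with SE bars; filled points passed an adjusted p of 0.05 and open points did not. The vehicle points reach 1.71 for Nop56, and Rrn3 is the point nearest 0 among them.

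The change was spread over the fractions. All 32 genes had their lowest vehicle mean in F1, and the highest was in F5 for 20, in F4 for 7 and in F3 for 5. The mean summed level was 1095 CPM in F1, 1487 in F2, 1844 in F3, 2182 in F4 and 2393 in F5 (n = 3). Median log2 fold changes of neighbouring fractions were 0.46 for F2 against F1, 0.37 for F3 against F2, 0.20 for F4 against F3 and 0.14 for F5 against F4. Single steps rarely passed the edgeR test. From F1 to F2 all 32 genes were positive, against 51.8% of all genes, and 14 had an unadjusted p under 0.05, against 11% of all genes. None was called by edgeR (0.00% of all genes), DESeq2, which gave an adjusted p for 9 of the 32, or limma voom. Polr1a (0.84 ± 0.21) and Wdr12 (0.83 ± 0.23) had the smallest p there (edgeR adjusted p = 0.286 and 0.294). Without replicate 1 7 genes were called in that step, all higher, against 0.781% of all genes called higher in the same fit, and without replicate 2 or replicate 3 none was. From F2 to F3 29 genes were positive (49.8% of all genes), 12 had an unadjusted p under 0.05 (9.98% of all genes) and none was called by edgeR (0.00% of all genes), DESeq2 or limma voom, with the smallest p for Bysl (0.78 ± 0.25) and Taf1d (0.37 ± 0.13).

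From F3 to F4 1 gene rose, Taf1d, against 0.410% of all genes. It had 85.1, 83.7 and 91.4 CPM in F3 and 103, 141 and 156 CPM in F4, without overlap (log2 fold change 0.60 ± 0.12, edgeR adjusted p = 0.0308). The call was lost without replicate 2, without replicate 3 and without the mouse block. From F4 to F5 0 of the 32 genes were called by edgeR, DESeq2 or limma voom (0.0684% of all genes by edgeR), 1 had an unadjusted p under 0.05 (7.25% of all genes), and Nop58 (0.29 ± 0.14) and Pes1 (0.36 ± 0.20) had the smallest p.

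Other genes of the same process moved with the 32. Of 125 tested genes on 5 further lists, 70 rose from F1 to F5 in vehicle mice and 1 fell, with a median log2 fold change of 0.63. Of 46 other large subunit factors 25 rose, led by Ppan (1.81 ± 0.26, edgeR adjusted p = 9.51e-05) and Npm3 (1.24 ± 0.18), and Eif6, which keeps the large subunit from joining the small one, fell (-0.36 ± 0.11, adjusted p = 0.0234). Of 44 other small subunit factors 29 rose, led by Mphosph10 (0.99 ± 0.16) and Nat10 (1.26 ± 0.24). Of 11 other genes on a list of snoRNP proteins and associated nucleolar or assembly factors 6 rose. The associated factors Tcof1 (1.07 ± 0.17) and Ruvbl1 (1.28 ± 0.28) led them. Of 10 other RNA polymerase I and SL1 genes 5 rose, led by Cd3eap, a polymerase I subunit (1.40 ± 0.23), and Polr1c (0.84 ± 0.22), and of 14 genes of the RNA exosome, which trims ribosomal RNA, 5 rose, led by Dis3 (1.19 ± 0.22) and Exosc8 (1.10 ± 0.28). Of 25 cytosolic ribosomal protein genes 21 rose, with Rpl3 (1.88 ± 0.23) and Rps24 (0.95 ± 0.14) first by p. Ribosomal protein genes have many near-identical copies, so their counts are uncertain.

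MYC is a transcription factor that drives many ribosome biogenesis genes, and MAX is its partner. In the MYC and MAX network 2 of 11 tested genes rose from F1 to F5 in vehicle mice and 4 fell. Myc (1.61 ± 0.48, edgeR adjusted p = 0.0188) and Mycn (1.86 ± 0.67, adjusted p = 0.0463) were higher. Max (-1.06 ± 0.17, adjusted p = 0.000288) and Mxd1, a competitor of MYC for MAX (-1.29 ± 0.25, adjusted p = 0.00278), were lower, as were Mxi1 and Mlx. Among p53 targets, which nucleolar stress can raise, 1 of 9 was higher and 2 were lower, Cdkn1a (-0.47 ± 0.11) and Mdm2 (-0.46 ± 0.12).

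Markers of cell types and of tissue handling also moved between F1 and F5 in vehicle mice. Proliferation genes rose for 18 of 20, led by Rrm1 and Tyms, with a median log2 fold change of 1.20 and a summed level of 466 to 886 CPM in F1 and 1160 to 1889 CPM in F5. Crypt base stem cell genes rose for 11 of 13 (340 to 451 CPM in F1, 655 to 1394 in F5), Paneth cell genes for 7 of 8 (3106 to 6025 CPM, then 6600 to 18635). Enterocyte genes fell for 17 of 20. Goblet cell genes fell for 4 of 7 and rose for 1 (11772 to 16047 CPM in F1, 4507 to 6104 in F5), with Muc2 at 0 reads in both. Genes induced by tissue dissociation rose for 15 of 16, led by Jun and Ier2. Their mean summed level was 1090, 873 and 1114 CPM in F1, F2 and F3 and 2913 and 4453 CPM in F4 and F5. Leukocyte genes summed to 509 to 843 CPM in F1 and 246 to 529 CPM in F5, with Cd79a at 0 reads in both. Stromal genes summed to 6.6 to 14.1 and 12.1 to 17.9 CPM, with Pdgfra and Cdh5 at 0 reads in F1 and Acta2 at 0 in F5. The part of proliferation, stem and Paneth cell content and of handling in the change of the 32 genes was not tested.

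**Figure D4:**
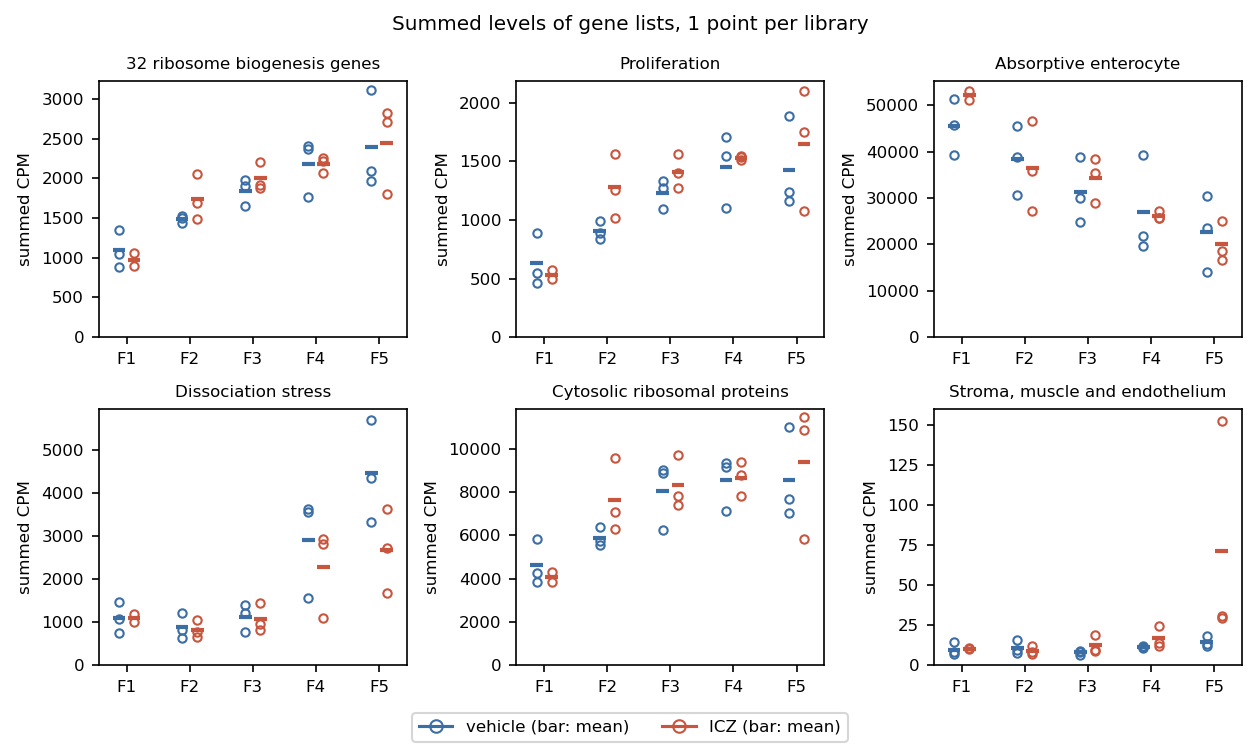
Summed CPM (y axis, from 0) of the 32 genes and of 5 marker lists by fraction (x axis), with 1 point per library, a bar at the group mean, vehicle in blue and ICZ in red. The 32 genes and the proliferation list climb from F1, dissociation stress genes climb from F4, and the stromal list reaches 153 CPM in one ICZ F5 library.

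In the ICZ mice, which are other animals, the 32 genes were again lowest in F1 and most often highest in F5 (23 genes), then F4 (5), F2 (3) and F3 (1). As 2 ICZ mice had an F1 library among those analysed, F5 was compared with F2 with the mouse as a block. Of the 32 genes 13 rose and none fell, against 6.69% of 13328 genes called higher, and the median log2 fold change was 0.50 (0.03 over all genes). For 4 genes the groups did not overlap, against 8.83% of all genes. Taf1d had 67.9, 82.4 and 88.1 CPM in F2 of ICZ replicates 1, 2 and 3 and 157, 148 and 156 CPM in F5, which lie well apart (log2 fold change 1.01 ± 0.13, edgeR adjusted p = 5.95e-05). Nop58 had 112, 135 and 156 CPM in F2 and 144, 234 and 244 CPM in F5, with replicate 1 of F5 below replicate 3 of F2 (0.67 ± 0.12, adjusted p = 0.00112). Ddx21 had 104, 113 and 126 CPM in F2 and 158, 175 and 173 CPM in F5, without overlap (0.61 ± 0.11, adjusted p = 0.00142).

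By role, the C/D and U3 genes rose in 3 of 4 and the other nucleolar genes in 4 of 6, the H/ACA genes in 2 of 4, the small subunit genes in 2 of 7, and RNA polymerase I in 1 of 4 and the large subunit in 1 of 7. Nop56 (0.93 ± 0.18) and Gnl3 (0.83 ± 0.16) passed, and Rrn3 was at -0.15 ± 0.13 without passing. Among the further ribosome biogenesis lists 26 of 125 rose and 2 fell, Eif6 (-0.33 ± 0.10) and C1d, an exosome cofactor (-0.53 ± 0.14). The F5 library of ICZ replicate 1, the one with few genes taking most reads, had low levels of many of the 32: the F5 minus F2 log2 difference was positive for 19 genes in that mouse, with a median of 0.17, and for 32 and 26 in the others, with medians of 0.68 and 0.30. Without that library 20 genes were called, among them all 13, against 9.32% of all genes called higher in that fit. Without ICZ replicate 1 19 genes were called (7.23% of all genes higher), without replicate 2 7 (3.43%) and without replicate 3 9 (1.99%). In vehicle replicates 1, 2 and 3 the F5 minus F2 log2 difference had medians of 0.45, 0.36 and 1.05. It was positive there for 27, 29 and 32 genes. F5 against F2 was not tested in vehicle mice.

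Stromal markers moved with this comparison. All 7 tested stromal genes rose, led by Dcn (4.31 ± 0.49, edgeR adjusted p = 2.05e-05) and Col3a1 (4.55 ± 0.52), from a summed 7.0 to 11.5 CPM in F2, where Cdh5 and Acta2 had 0 reads, to 29.6, 30.7 and 153 CPM in F5. Dissociation genes rose for 14 of 16, with a median log2 fold change of 1.99, and proliferation genes for 6 of 20. The part of these in the ICZ comparison was not tested.

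ICZ against vehicle was compared on the reads of F2 to F5 added per mouse. None of the 32 genes was called by edgeR, DESeq2 or limma voom, and edgeR called 0.00% of 15497 genes. Of the 32 genes 26 had a log2 fold change above 0, against 51.2% of all genes, with a median log2 fold change of 0.10 (1.07-fold), and 1 had an unadjusted p under 0.05, against 5.72% of all genes. Gar1 had 15.2, 19.1 and 15.6 CPM in vehicle mice and 19.9, 24.3 and 24.1 CPM in ICZ mice. All ICZ mice were above all vehicle mice, which held for 1 of the 32 genes and for 5.12% of all genes. The log2 fold change of Gar1 was 0.45 ± 0.13 (edgeR adjusted p = 0.846). Nop10 had 64.6, 85.0 and 93.1 CPM in vehicle mice and 81.6, 103 and 109 CPM in ICZ mice, with overlap (0.28 ± 0.15, edgeR adjusted p = 0.856). The sums hold the F2 to F5 libraries, and in each of these fractions gene lists differed between the groups, as given below. The part of these lists was not tested.

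Vehicle and ICZ mice with the same replicate number deviated together in these sums. A pairing by number was read from the same counts, so calls made with this block are not an independent result. Blocked by replicate number, edgeR called 1.49% of all genes (0.749% higher and 0.742% lower) and 2 of the 32, both of H/ACA snoRNPs and both higher: Gar1 (0.45 ± 0.09, adjusted p = 0.0226) and Nop10 (0.28 ± 0.06, adjusted p = 0.0401). Dkc1, of the same particle, was at 0.24 ± 0.06 and did not pass (adjusted p = 0.0715). The edgeR fit without the block, which called 0.00% of 15497 genes, called 0 of 127 other ribosome biogenesis genes. Of these 127 genes 85 had a log2 fold change above 0 in that fit, against 51.2% of all genes. Their calls with the block were not counted, so the 2 blocked calls cannot be set against them.

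**Figure D5:**
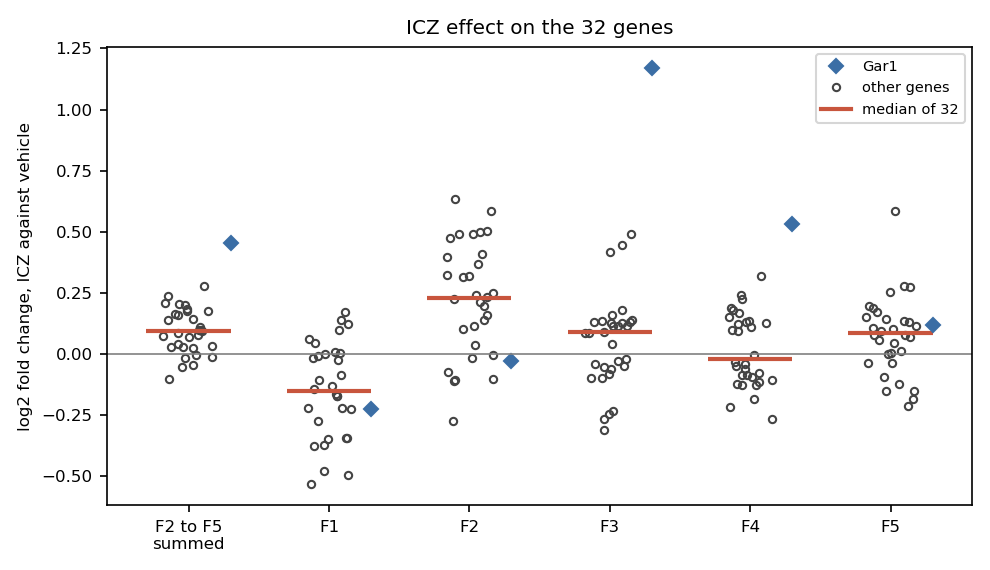
Log2 fold change of ICZ against vehicle (y axis) for each of the 32 genes in the sum of F2 to F5 and in each fraction (x axis); open circles are single genes, the blue diamond is Gar1 and the red bar is the median of the 32. The median runs from -0.15 in F1 to 0.23 in F2, and Gar1 reaches 1.17 in F3.

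Within single fractions edgeR called 0 of the 32 genes in any of the 5 comparisons, and 0.0324% of all genes in F1, 0.0165% in F2, 0.00815% in F3, with 0.00% for both F4 and F5. DESeq2 gave an adjusted p for 14 of the 32 in F1, for 31 in F3 and for all in the others. It called Gar1 in F3, where it called 0.202% of 9889 genes higher, and no other of the 32. None of the 32 was called by limma voom. In F1, with 2 ICZ libraries, 23 of the 32 genes had a log2 fold change below 0 and 9 above 0, against 48.4% of all genes above 0. The median was -0.15, and 1 gene had an unadjusted p under 0.05, against 4.39% of all genes. Nop2 had 21.2, 15.2 and 18.3 CPM in vehicle F1 and 12.2 and 13.6 CPM in ICZ F1 (-0.48 ± 0.21, edgeR adjusted p = 0.995), and Npm1 was at -0.37 ± 0.18. Crypt base stem cell genes summed to 340 to 451 CPM in vehicle F1 and 267 to 320 CPM in ICZ F1, without overlap. Other lists were higher in ICZ F1 without overlap. Goblet cell genes had 11772 to 16047 and 17443 to 18574 CPM, with Muc2 at 0 reads in both. For p53 targets it was 701 to 825 and 844 to 911 CPM, and for the MYC and MAX network 942 to 1076 and 1117 to 1144 CPM. The p53 targets were lower in ICZ in F4, as given below, and their ranges overlapped in F2, F3 and F5. Single genes were lower in ICZ F1 without overlap for 3 of the 32 and 9.67% of all genes. The part of these lists was not tested. In F2, 24 genes were above 0, against 50% of all genes, with a median of 0.23, and 9 had an unadjusted p under 0.05, against 12.0% of all genes. Nop10 had 46.0, 70.4 and 59.2 CPM in vehicle F2 and 79.4, 84.0 and 108 CPM in ICZ F2, without overlap (0.58 ± 0.16, edgeR adjusted p = 0.209). ICZ F2 lay higher without overlap for 7 of the 32 genes and for 10.7% of all genes. Same-numbered mice correlated at 0.18, 0.11 and 0.17 in F2. With the replicate block Nop10 was the 1 gene of the 32 called there, against 0.768% of all genes higher. Npm1 was at 0.50 ± 0.17 with overlap. Cell type markers differed between the same F2 libraries. Leukocyte genes summed to 510 to 889 CPM in vehicle F2 and 175 to 358 CPM in ICZ F2, and proliferation genes to 839 to 993 and 1016 to 1563 CPM, both without overlap. Paneth cell genes summed to 5315 to 7154 CPM in vehicle F2 and 5658 to 16839 CPM in ICZ F2, with overlap. None of the 12 leukocyte, 20 proliferation and 8 Paneth cell genes tested was called by edgeR in F2, and their part in the F2 values was not tested.

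In F3 the median was 0.09 and 3 genes had an unadjusted p under 0.05 (9.15% of all genes). Gar1 had 14.3, 10.8 and 7.37 CPM in vehicle F3 and 25.8, 22.5 and 25.9 CPM in ICZ F3. The groups lay well apart. ICZ F3 was higher without overlap for 3 of the 32 genes and for 8.97% of all genes. The log2 fold change of Gar1, 1.17 ± 0.21, was the largest ICZ effect on any of the 32 genes in a fraction. It did not pass (edgeR adjusted p = 0.25). Ebna1bp2 was at 0.49 ± 0.16. Leukocyte genes summed to 276 to 511 CPM in vehicle F3 and 219 to 232 CPM in ICZ F3, without overlap, and their part was not tested. In F4 the median was -0.02 and 1 gene had an unadjusted p under 0.05 (2.89% of all genes): Gar1 (0.53 ± 0.22, with overlap), followed by Ebna1bp2 (0.22 ± 0.13). Stromal genes summed to 10.7 to 11.6 CPM in vehicle F4 and 11.8 to 24.3 CPM in ICZ F4, without overlap. Cdh5, Acta2 and Myh11 had 0 reads in vehicle F4, and Cdh5 had 0 reads in ICZ F4. The p53 targets were lower in ICZ F4 without overlap, at 563 to 608 CPM in vehicle and 497 to 545 CPM in ICZ mice. The part of these lists was not tested. In F5 the median was 0.09 and 1 gene, Rrp9, had an unadjusted p under 0.05 (2.79% of all genes). Rrp9 had 9.13, 7.45 and 11.3 CPM in vehicle mice and 13.3, 14.2 and 13.1 CPM in ICZ mice (0.59 ± 0.24), followed by Dkc1 (0.27 ± 0.26). Stromal genes summed to 12.1 to 17.9 CPM in vehicle F5, with Acta2 at 0 reads, and 29.6 to 153 CPM in ICZ F5. These did not overlap, and their part was not tested.

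Whether the ICZ effect changed along the fractions was tested as a slope over fraction number in all 29 libraries. None of the 32 genes was called by edgeR, DESeq2 or limma voom, against 0.0142% of 14067 genes by edgeR, and 0 had an unadjusted p under 0.05, against 5.64% of all genes. The median slope was 0.00 log2 per fraction, with Rrp9 (0.14 ± 0.08) and Utp20 (0.14 ± 0.08) first by p.

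MYC with MAX binds the E-box CACGTG, and AHR with its partner ARNT binds sites with the core GCGTG, so both were searched in the promoters. RefSeq (GRCm38.p6) windows from 250 bases before to 50 after the start were matched for 27 of the 32 genes, with 29 windows in all, and both strands were read. CACGTG was in 20.7% of these windows, against 7.15% of all 32851 windows and 9.89% of the windows of genes tested. In the 250 bases before the start alone the share was 6.90%, against 6.02% and 8.30%, since 4 of the 6 genes with a match had it after the start. The 6 genes with CACGTG had a median log2 fold change from F1 to F5 of 0.81 and the 21 without it of 1.22. Of the 4 with the largest change among those that rose, the 30 bases around the E-box, in capitals, are shown 5' to 3' on the strand of the gene to show where in the promoter the letters lie.
Mybbp1a: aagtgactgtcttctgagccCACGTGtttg
Wdr43: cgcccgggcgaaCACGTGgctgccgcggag
Utp20: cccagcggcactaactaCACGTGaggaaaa
Pes1: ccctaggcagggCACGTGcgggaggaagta
They lie at chr11:72441347-72441376 (plus), chr17:71616220-71616249 (plus), chr10:88826765-88826794 (minus) and chr11:3963965-3963994 (plus), and the first base of each E-box is at position 41, 18, 38 and 3 after the start. A match is a string of letters and was not tested for binding.

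GCGTG was in 72.4% of the windows of these genes, against 32.4% of all windows and 50.2% of those of tested genes. A longer form, TNGCGTG, which includes the core, was in 27.6%, against 5.07% and 7.65%. Base composition differed little from that of tested genes: the median GC content was 58.0% against 60.7%, and the median number of CG pairs 19 against 20. Gar1, the gene with the largest ICZ effect in F3, was picked for display after its values were seen. Its 250 bases before the start (chr3:129831397-129831646, minus strand, 5' to 3') hold GCGTG on the opposite strand 2 times, read here as CACGC in capitals, and no E-box. A further match of the core in Gar1, within a match of the longer form, lies after the start. The 250 bases before the start of Nop10 (chr2:112261676-112261925, plus strand), the other gene called with the replicate block, hold no match of these 3 motifs. The 1 match of the core in Nop10, within a match of the longer form, also lies after the start.
Gar1: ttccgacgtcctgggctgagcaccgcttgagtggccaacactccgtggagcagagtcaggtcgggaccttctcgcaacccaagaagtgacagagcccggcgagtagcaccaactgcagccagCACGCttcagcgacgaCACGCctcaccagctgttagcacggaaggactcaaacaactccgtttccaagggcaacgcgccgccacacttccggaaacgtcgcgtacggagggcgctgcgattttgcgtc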

How the data were processed

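The authors deposited 1 table of whole-number read counts per gene, not normalized, per the file headers and its values. Per the submitters' processing notes, which give no roles or order, the tools were FastQC 0.11.2, BWA 0.7.17-r1188 (an aligner), SAMtools 1.10 and HTSeq 0.11.2 (a read counter), and the build was GRCm38.p6 (mm10). Whether counting used strand or molecular identifiers, and on which annotation release, is not given in the sources used. Overlapping genes on opposite strands can therefore not be told apart, which concerns 14 of the 32 genes (Nop56 with Idh3b, Dkc1 with Mpp1, Gnl3 with Pbrm1, among others), and genes with near-identical copies can lose reads. Summary lines that name no gene (5) stayed out; reads assigned to genes were 51.6% to 61.6% of counted reads.

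The members and gene lists were chosen with earlier results of these data known. Each comparison used edgeR 4.0.16 in R 4.3.3 on the deposited counts, over all genes kept by filterByExpr, with TMM normalization, robust quasi-likelihood F tests and Benjamini-Hochberg adjustment at 0.05; "called", "rose" and "fell" mean an adjusted p under 0.05. Levels are CPM, and log2 CPM within mice used a prior count of 2. Fraction contrasts had the mouse as a block, since the fractions of a mouse are from 1 animal (mean correlation of deviations 0.173 within a mouse, -0.086 between mice). ICZ contrasts had none in the main fit. Deviations of same-numbered vehicle and ICZ mice correlated at 0.38, 0.25 and 0.47 in the sums and at 0.18, 0.11 and 0.17 in F2. They correlated at 0.26, 0.01 and 0.18 in F3, at 0.33, 0.01 and 0.06 in F4 and at 0.37, -0.09 and 0.49 in F5. Mice with different numbers correlated at -0.42 to -0.02 in the sums and at -0.15 to -0.02 in F2. The range for them was -0.24 to 0.10 in F3, -0.21 to 0.21 in F4 and -0.45 to 0.20 in F5. A pairing by number was thus read from the same counts, and whether the numbers pair the mice is not known. In the titles replicates 2 and 3 carry the same numbered WT label in both groups, and replicate 1 carries different ones. Calls made with the replicate block are therefore not an independent result. Alternatives used DESeq2 1.42.0, limma 3.58.1, other scaling and filters, and leaving out each mouse. On simulated data with 200 genes changed 2-fold, the fit recovered 93.0% for F5 against F1 and 98.0% for F5 against F2 in ICZ mice. It recovered 92.0% for the summed ICZ contrast and 32.5% for ICZ in F5. The changed genes were drawn from more abundant genes only, with a shared dispersion and no differences between mice or other fractions. These shares therefore do not give the power for genes with few reads, such as Fbl, or for changes under 2-fold. Replicate libraries differed beyond sampling noise in all 28 pairs. Named with values are the 3 genes of largest and of smallest change from F1 to F5 and the 1 of smallest p in each role, elsewhere the 3 called or, with none called, the 2 of smallest p; other genes are named to account for every member. Coordinates are from GENCODE M21, counted from 1.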

Additional observations from a re-analysis of the deposited data

How the results depend on the processing

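Shares in brackets are of all genes called higher in the same fits. With 1 mouse left out, the 29 calls from F1 to F5 in vehicle mice became 12 to 30 (2.98% to 16.4%). They became 26 without the replicate block (12.3%), with Bysl, Rrs1 and Ebna1bp2 lost, and 28 to 30 under the other settings (6.61% to 16.4%). Rrn3 ranged from -0.14 to 0.34 when 1 mouse was left out, turning negative without vehicle replicate 3. Leaving out 1 mouse gave 0 to 7 calls for F2 against F1 (0% to 0.781%) and 0 to 1 for F3 against F2 (0% to 0.506%). It gave 0 to 2 for F4 against F3 (0.0917% to 1.4%) and 7 to 19 for F5 against F2 in ICZ mice (1.99% to 7.23%). For ICZ against vehicle it gave 0 to 2 in F2 (0% to 1.27%) and 0 to 2 in F3 (0% to 3.34%). Without the F5 library of ICZ replicate 1, 20 were called in the latter mice from F2 to F5 (9.32%). With no filter on low counts the calls were 2 for F2 against F1 (0.347%) and 3 for F3 against F2 (0.483%). This setting gave 2 for F4 against F3 (0.595%), 2 for ICZ in F2 (0.635%) and 1 for ICZ in F3 (0.703%). In F5 against F2 in ICZ mice it moved the median of all genes to 0.13. F4 against F3 had 0 calls with no replicate block. The replicate block gave 2 calls in the summed ICZ contrast (0.749%) and 1 in F2 (0.768%). It gave 1 in F3, Gar1 (0.163%), where same-numbered mice correlated at 0.01 to 0.26. Whether the numbers pair the mice is not known. DESeq2 gave 1 call in F3 (0.202% of 9889 genes with an adjusted p). Upper-quartile scaling and the sum of F2 to F4 were chosen after seeing the data. Of the alternative counts of called genes and motif shares, 25 moved and 249 did not, but 229 of the latter were counts at 0 under both settings. For the single genes named, 11 values lost a call, 14 gained one, 1 changed sign and 329 kept their direction and side of the threshold, and 72 counts over all genes moved by over 1.5 times. E-box shares were 6.90% in the 250 bases before the start (6.02% of all windows, 8.30% of tested genes) and 6.90% in the 100 bases (3.17% and 4.61%). In the 100 bases GCGTG was at 44.8% (15.6% and 25.9%) and TNGCGTG at 6.90% (1.73% and 2.66%), and in the 250 bases at 58.6% (28.2% and 44.4%) and 17.2% (4.10% and 6.23%). The cause of these shifts was not tested. At this depth Fbl rested on few reads, and of simulated 2-fold ICZ effects in F5 32.5% were recovered.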

Other observations

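A sample whose labels name neither treatment nor fraction entered no comparison. Its levels of the 32 genes, as CPM without TMM scaling, lay within the range of the 29 assigned libraries: Ncl had 564, Nop58 145, Taf1d 95.4, Nop56 42.1 and Gar1 16.6 CPM.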
